A study of Mus musculus with 2 samples.

Results

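Cytosolic ribosomal proteins are the protein subunits of the ribosomes that translate nuclear-encoded mRNAs. Their genes were taken by symbol, as every Rpl or Rps gene with a number plus Rplp0, Rplp1, Rplp2 and Rpsa, without the S6 kinases and pseudogenes, and 87 of the 20652 genes that the array names were found. They comprised 46 core genes of the large 60S subunit, 31 core genes of the small 40S subunit, 9 paralogs by symbol, and Rps19bp1, which shares the name but encodes a binding protein of Rps19. The 77 core genes lie on 19 chromosomes, with 14 on chromosome 7 and 4 on the X chromosome.

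The study compared mouse liver after an overnight fast with liver upon feeding, and the question here was how the mRNAs of the ribosome differed between both states. The fasting group was male mice fasted for 16 h by one label and for 14 to 16 h by the protocol. The feeding group was male mice that one label describes as fed ad libitum and the protocol as given food after the fast. The methods describe C57BL/6 J mice, aged about 8 to 12 weeks, for the animal work in general and give no age for these pools. No transgene or drug is named for either group. Total RNA from the livers of 3 mice was pooled within each group, labelled with Cy3 and hybridised to 1 Agilent whole-genome array per group, so a difference between groups has no replicate check, no p-value or standard error can be given for it, and differences between mice within a pool cannot be seen. In bulk liver, fewer cells of a type and less RNA per cell cannot be told apart.

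A ribosome holds most of its proteins in a single copy, and free ribosomal proteins are degraded, so these genes are known as one of the most evenly expressed gene families. Their mRNAs begin with a 5′ terminal oligopyrimidine (TOP) tract, a cytidine followed by an unbroken run of pyrimidines. When nutrients and insulin activate the kinase mTORC1, TOP mRNAs move onto polysomes, and when mTORC1 is off the RNA-binding protein LARP1 holds them back from translation and stabilises them. In liver, fasting is known to lower the ribosome content and refeeding to restore it. An array measures the amount of mRNA and not its translation, so that layer of control is outside these values.

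The start regions of the genes are shown because the TOP tract is the sequence this family is known for. The RefSeq promoter table (build GRCm38.p6) held 67 of the 87 genes, of which 57 were core genes. A gene was counted where at least 1 of its listed starts was a C followed by at least 4 further C or T. This was so for 13 of 57 core genes (22.8%), for 3.01% of 27025 genes in the table, for 0 of 69 mitochondrial ribosomal protein genes and for 0 of 33 genes of ribosome biogenesis. The count depends on the exact base at which the table places each start, and a start placed a few bases off hides a tract. The following windows run from 10 bases before the listed start and hold 30 bases, with the pyrimidine run from the start in capitals.
Rps6 (chr4:86857348-86857377, minus strand): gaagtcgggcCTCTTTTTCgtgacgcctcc
Rps18 (chr17:33955646-33955675, minus strand): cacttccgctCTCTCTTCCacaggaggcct
Rps21 (chr2:180257369-180257398, plus strand): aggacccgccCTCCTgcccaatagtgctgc
Rpl14 (chr9:120571507-120571536, plus strand): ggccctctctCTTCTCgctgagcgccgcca
Rpl35 (chr2:39005112-39005141, minus strand): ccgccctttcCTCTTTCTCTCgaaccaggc
Rplp2 (chr7:141447641-141447670, plus strand): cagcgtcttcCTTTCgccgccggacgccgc
Rpl7l1 (chr17:46782637-46782666, minus strand): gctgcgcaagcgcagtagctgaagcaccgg
Rps19bp1 (chr15:80264287-80264316, minus strand): cggaagtagctcgccgcgtgtgggcggggc
The core genes in this set were taken from the 13 with a pyrimidine run from the listed start. Rpl7l1 and Rps19bp1 show none in capitals there, and neither did 44 of the 57 core genes, so this does not set them apart. The Rps21 window is at one of its listed starts, and another start in the table has no such run.

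A further sequence shared by these promoters was CGGAAG, the core of the sites bound by ETS-family factors such as GABPA, searched on both strands over 250 bases before and 50 bases after the start. It was present in 40 of 57 core genes (70.2%), in 18.8% of all genes in the table, in 56.5% of the mitochondrial ribosomal protein genes and in 60.6% of the biogenesis genes. TATAAA, the core of the site bound by TBP and searched in the same way, was in 10.5% of core genes and in 15.7% of all genes. The following windows show the CGGAAG match in capitals for 2 genes with large increases, for the gene with the largest decrease and for Rps6.
Rpl37 (chr15:5116579-5116608, plus strand): accaagacccgcCGGAAGtagtttcctggg
Rps15 (chr10:80292373-80292402, plus strand): gtatccgcagagCGGAAGctgttgagcggt
Rps6 (chr4:86857440-86857469, minus strand): ttaatctacgccCGGAAGtaacgcccctct
Rps21 (chr2:180257342-180257371, plus strand): agtaccctgaccCGGAAGcacttaccgagg
The match begins 22 bases before the listed start of Rpl37, 46 bases before that of Rps15, 90 bases before that of Rps6 and 25 bases before that of Rps21. Rpl37 and Rps15, shown because they have a match, thus hold the same letters as Rps21. Rpl27 and Rpl14, with larger increases of 0.39 and 0.36, had no match.

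The 87 genes were read by 177 probes on 186 spots of each array. Of these probes, 171 were well above background on both arrays, 2 on 1 array and 4 on neither. All 77 core genes were well above background on both arrays, and 0 of their spots were saturated or flagged as outliers. The processed signal, an intensity from which the scanner software subtracted the background, ran from 4178 to 119409 across core genes in the fasting pool and from 4699 to 117004 in the feeding pool. The median local background of the member spots was 31.7 upon fasting and 23.3 upon feeding, so that the core genes stood far above it. Over all noncontrol spots, the share well above background was 63.1% on the fasting array and 72.3% on the feeding array, and the median signal was 61.5 and 52.8.

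The core ribosomal protein mRNAs were slightly and evenly higher upon feeding. Before any scaling, 68 of 77 core genes had a higher signal in the feeding pool, with a median log2 ratio of 0.14, whereas the median over all genes measured was -0.09 and 41.9% of these had a higher signal. After quantile normalization of the 2 arrays, 72 of 77 core genes were higher upon feeding and 5 were lower. Of the 16346 genes tested 47.7% were higher, and of the 15199 of them with a change 51.3% were. The median change of the core genes was 0.18 on the log2 scale, or 1.13-fold, against 0.01 over all genes. The interquartile range was 0.57 wide over all genes, from -0.28 to 0.29, and 0.12 wide over the core genes, from 0.12 to 0.25.

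No core gene stood out in size. At a threshold of 2-fold, 0 of the 84 member genes with a change were called, where 7.91% of all genes tested were called. At 1.5-fold, 1 member was called, Rps19bp1, where 21.1% of all genes were called in either direction and 10.5% as higher. At 0.32 on the log2 scale, 7 core genes were higher and 0 were lower, whereas 21.4% of all genes were higher and 21% were lower. After quantile normalization the shares past each threshold were thus below the background, while upon scaling each array by its median the share past 0.32 was above it, as given below. The family stood out by its narrow spread and the common sign of small changes.

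**Figure D1:**
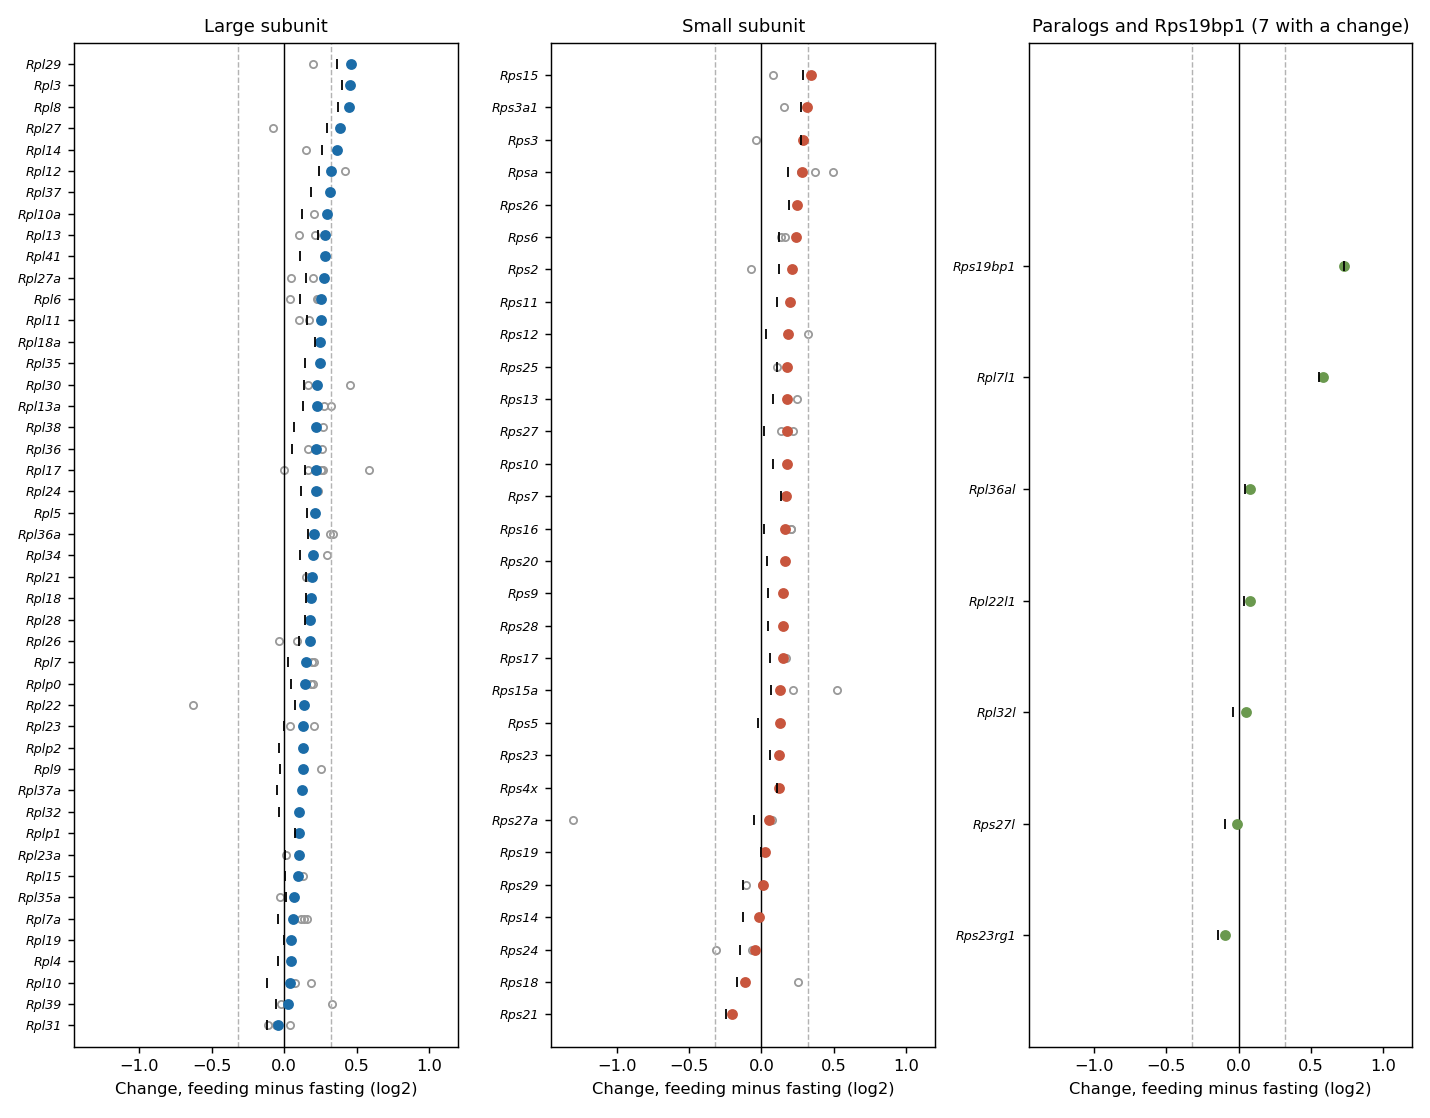
Change of each member gene between the fasting and the feeding pool, in log2 units (horizontal axis, positive when higher upon feeding), with large subunit genes, small subunit genes and paralogs in separate panels. Filled points give the brightest probe of a gene, grey rings the other probes of that gene, black ticks the same brightest probe after cyclic loess, dashed lines changes of 0.32; 1 small subunit gene is not drawn. Of the large subunit points, 45 of 46 lie to the right of 0, and the lowest small subunit point is Rps21 at -0.20.

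The spots that the array repeats give the size of the measurement error on these arrays. Of 399 probes printed on 10 spots, 47 were at least as bright as the dimmest core gene, and for these a difference between single spots of the 2 arrays had an SD of 0.09. Of the core genes, 41 were higher and 1 was lower by more than 2 such SD (0.18). Of all genes with a change, 65.5% changed by 0.175 or less and 32.7% by -0.175 or less. For the 754 other bright genes described below these shares were 77.1% and 26.0%, so changes of this size were common on the array. This spread covers spots on an array only, not labelling, hybridisation or the animals. One Rpl23 probe is among the repeated ones: its 10 spots lay between 5370 and 6092 in the fasting pool and between 5734 and 6255 in the feeding pool, with means of 5875 and 5945. The ranges of these spots overlapped, and the change of that probe was 0.04. The brightest Rpl23 probe went from 48366 to 50461, a change of 0.13.

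Among the 46 large subunit genes, 45 were higher upon feeding and the median change was 0.20. The largest change was that of Rpl29, which encodes a small basic protein of the large subunit: its signal was 32338 upon fasting and 43257 upon feeding, a normalized change of 0.46. Rpl3, a protein that reaches towards the peptidyl transferase centre, went from 16151 to 21765, also 0.46. Rpl8, the eukaryotic counterpart of bacterial L2, went from 26379 to 35198, a change of 0.45. These genes were 1.36-fold to 1.38-fold higher, and between 15.7% and 16.3% of all genes with a change had a larger increase, so that even the top of the family was not extreme on the array.

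Rpl27 went from 35881 to 45676 (0.39) and Rpl14 from 37758 to 47062 (0.36). Rpl12, a protein at the base of the stalk, went from 29754 to 36305, a change of 0.32. Rpl37, a zinc-binding protein that contacts several domains of the large subunit rRNA, went from 44182 to 52419, a change of 0.32. In each of these genes the feeding pool was brighter before normalization as well. Not all their other probes were as far from 0, since the other probe of Rpl27 gave -0.08, from 8804 in the fasting pool to 8193 in the feeding pool, and the other probe of Rpl29 gave 0.20.

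At the lower end of the large subunit, Rpl31, which lines the outer rim of the polypeptide exit tunnel, was the only gene below 0, with 26743 upon fasting, 25373 upon feeding and a change of -0.04. Rpl39, a very small protein of the same tunnel, had 29615 and 29444, a change of 0.03. Rpl10, which joins the large subunit late in the cytoplasm, had 119409 and 117004, a change of 0.04. All 3 differed by less than the 2 SD of single spots.

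In the small subunit, 27 of 31 genes were higher upon feeding and the median change was 0.16. Rps15, a protein of the subunit head near the decoding site, was highest, with a signal of 17639 upon fasting, 22006 upon feeding and a change of 0.34. Rps3a1 followed with 14644, 17998 and 0.31. Rps3, which lines the mRNA entry channel and also takes part in DNA repair, was at 4178 and 4976, a change of 0.29, while its other probe gave -0.03. Rps6, the ribosomal substrate of S6 kinase, went from 42825 to 48620, a change of 0.24. Rpsa, which doubles as the laminin receptor, went from 28859 to 33851, a change of 0.28.

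Of the 5 core genes below 0, 4 belonged to the small subunit and the other was Rpl31. Rps21 had 17259 upon fasting and 14831 upon feeding, a change of -0.20, and it was the only core gene lower by more than 2 SD of single spots. Rps18 had 16350 and 14812, a change of -0.11. For Rps24 the signals were 45623 and 42932, a change of -0.05, and for Rps14, 40949 and 39021, a change of -0.02. Upon scaling of each array by its median, the change of each of the 5 genes below 0 became positive, between 0.02 for Rps21 and 0.17 for Rps14, so the direction of these genes depends on the normalization. Rps29 with 0.01 and Rps19 with 0.02 were the next in order, and neither stood apart from 0 or from Rps14 by more than the spread of single spots.

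Genes known from human ribosomopathies, in which loss of 1 copy lowers the output of ribosomes, were spread over the range of the family and were picked for this role with their values known. Of the genes of Diamond-Blackfan anaemia, Rps19 read 4785 upon fasting and 4699 upon feeding (0.02), Rps26 read 19174 and 22437 (0.25), and Rpl35a read 19794 and 20458 (0.07). Rpl5 read 19969 and 22856 (0.21), and Rpl11 read 35767 and 41401 (0.25). Rps14, the gene of the 5q- syndrome, was among the lowest, as given above. As core members, these genes lie within the range of the family by definition. Rps19 and Rps14 lay within the spread of single spots around 0.

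Some further members were picked for their described roles with values known. Rpl38, which is needed for translation of Hox mRNAs, read 61030 upon fasting and 67249 upon feeding, a change of 0.22. Rps25, used by internal ribosome entry sites, read 22893 and 25401, a change of 0.18. Rpl41, the smallest ribosomal protein, read 73794 and 83928, a change of 0.28. All 3 were brighter in the feeding pool, and as chosen genes they say nothing of the family.

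Known functional groups within the subunits were described by their medians. The acidic stalk, which recruits translation factors, was higher in 3 of 3 genes, and in 2 of 3 after cyclic loess. Rplp0 read 44298 upon fasting and 47642 upon feeding (0.14), Rplp1 read 17300 and 18548 (0.10), and Rplp2 read 80154 and 82375 (0.13). Rpl5 and Rpl11, which carry 5S rRNA into the large subunit and bind MDM2 when assembly fails, changed by 0.21 and 0.25. The mRNA entry proteins Rps2, Rps3 and Rps9 were higher in 3 of 3 genes, with a median of 0.21, or 0.13 with the mean of probes, since the other probes of Rps2 and Rps3 gave -0.07 and -0.03. The 8 proteins of the exit tunnel had a median of only 0.07, with 7 of 8 higher, and after cyclic loess their median was 0.00, with 4 of 8 higher. No group moved against the family, and the groups are too small to be ranked.

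Several members serve as reference genes for qPCR. Rplp0 changed by 0.14, Rpl13a by 0.23 and Rps18 by -0.11. The signal of Rpl13a was 27305 in the fasting pool and 30808 in the feeding pool. On these 2 arrays Rpl13a was 1.17-fold higher and Rps18 was 1.08-fold lower upon feeding. The other probe of Rps18, however, gave 0.25, with 9850 upon fasting and 11661 upon feeding, so the sign for Rps18 differed between its probes.

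Rps27a is made as a fusion with ubiquitin, and its brightest probe read 40785 upon fasting and 40984 upon feeding, a change of 0.06. Fau, a ubiquitin-like fusion that yields Rps30, lies outside the symbol rule and was also on the array, with 89889 upon fasting and 99809 upon feeding, a change of 0.24. Rps27a thus lay in the lower part of the core range and Fau above its median.

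Repeated probes gave a further view of the same RNA. Of 51 core genes with a change for more than 1 probe, 39 were higher with all their probes, 1, Rps24, was lower with all, and in 11 the probes differed in direction. The median SD between probes of a gene was 0.07, and their median range was 0.14. Over all 172 member probes with a change, 152 (88.4%) were higher, with a median of 0.18. The direction of the family thus did not rest on the choice of the brightest probe, although the probes of a gene read the same pools and are no replicates of the condition.

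In 4 core genes the probes differed by more than 0.5, and 3 of these are named here, after their values were seen. A dim probe of Rps27a, at 17.0 upon fasting and 3.83 upon feeding, was not well above background in the feeding pool, and its change of -1.30 is a lower bound on the decrease. The other probe of Rpl22 had 3494 and 2201, a change of -0.63, against 0.13 for the brightest probe at 23055 and 24924. The 7 probes of Rpl17 ran from 0.00 to 0.58, the highest from the dimmest probe. The dim Rps27a probe was 1 of the 2 member probes past 2-fold. Probe sequences were not used here, so whether probes meet other transcripts or pseudogenes was not tested.

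**Figure D2:**
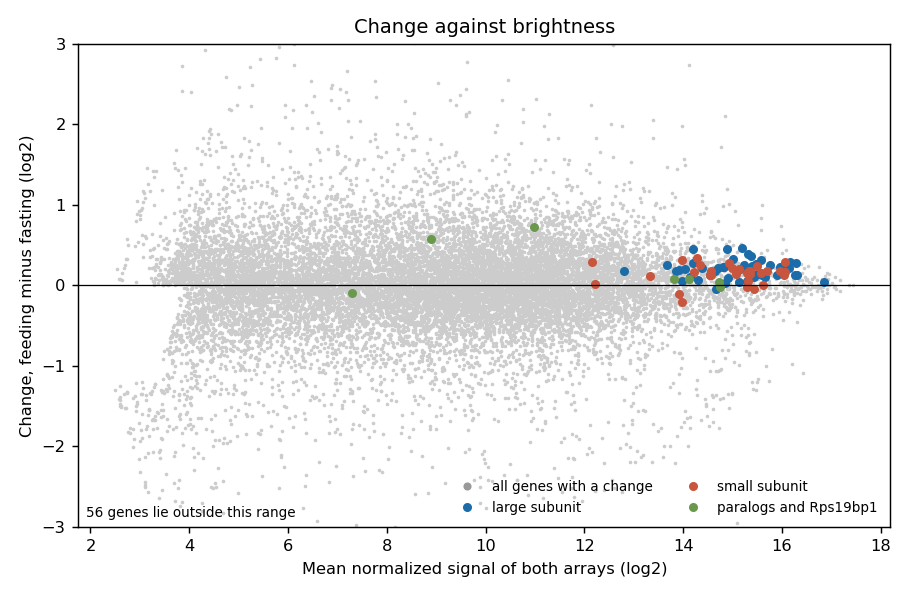
Change between the pools (vertical axis, log2, positive when higher upon feeding) against the mean normalized signal of both arrays (horizontal axis, log2), with all genes with a change in grey and member genes in colour. The core genes sit at the bright end of the array in a narrow band mostly above 0, between -0.20 and 0.46, and Rpl7l1 and Rps19bp1 lie among dimmer genes at 0.58 and 0.73.

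The paralogs did not share one pattern. Rpl3l, the striated muscle form of Rpl3, had a signal of 10.4 upon fasting, not well above background, and 7.0 upon feeding, which allows no fold. Rpl10l and Rpl39l, known as testis forms, were below that limit on both arrays. The 3 forms known from other tissues were thus at or below the detection limit in liver.

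Rpl7l1, an Rpl7-like protein of the nucleolus that acts in assembly of the large subunit, had 414 upon fasting and 558 upon feeding, a change of 0.58. Its parent Rpl7 had 46323 and 49298, a change of 0.15, so that the paralog exceeded its parent by 0.43, with a range of 0.18 to 0.53 across the processing alternatives. Rps19bp1, an activator of the deacetylase SIRT1 and a nucleolar protein, had 1589 and 2540, a change of 0.73, or 1.65-fold. Of all genes with a change, 7.57% had a larger increase than Rps19bp1. Rps19bp1 and Rpl7l1 had the largest increases among the members.

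The other paralogs measured changed by -0.09 to 0.08. Rpl22l1, whose expression Rpl22 is known to repress and which can replace it, had 14180 and 14789, a change of 0.08, and differed from Rpl22 by -0.05. That difference turned to 0.33 with the mean of all probes, into which the other Rpl22 probe enters, and to 0.05 with the normexp correction. Rpl36al had 17279 and 18164 (0.08), and Rpl32l had 27063 and 27150 (0.05), with differences from their parents of -0.13 and -0.06. Rps27l, a p53 target, had 27862 and 26871, a change of -0.01, which was -0.19 relative to Rps27 and reached -0.30 after normexp. Rps23rg1, a retrogene of Rps23, had 175 and 140, a change of -0.09, which was -0.22 relative to Rps23 and -0.42 under both scalings. The 2 SD of single spots among bright probes applies to the change of a gene. A difference between paralog and parent carries the error of both changes, so that limit is too narrow for it. Whether the differences of Rps27l and Rps23rg1 exceed the error of spots was not tested, and the Rps23rg1 probe is dim. Since paralogs and parents can be near-identical in sequence, signals of Rpl36al, Rpl32l and Rps23rg1 are uncertain.

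The core genes were next set beside genes of related function. The mitochondrial ribosomal proteins, which translate the mRNAs of the mitochondrial genome, were higher upon feeding in 70 of 77 genes with a median of 0.31, and 9 of them were higher by at least 1.5-fold, close to the 10.5% of all genes. Mrpl47, from 882 to 1815 (1.11), was the 1 gene past 2-fold, where 3.29% of all genes were higher by that much. Mrps34 at 0.85, Mrps27 at 0.82 and Mrps18b at 0.76 followed. Their median exceeded that of the core genes by 0.13 to 0.23 across the processing alternatives. Both families thus showed a shared sign, and the mitochondrial family the wider range.

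The genes of ribosome biogenesis, which make and process rRNA and assemble the subunits, showed larger changes than the proteins they assemble. Of 40 genes, 39 were higher upon feeding, with a median of 0.74 (1.68-fold), 25 were higher by at least 1.5-fold, and 10 were past 2-fold. Of all genes tested, 47.7% were higher, 10.5% by at least 1.5-fold and 3.29% by at least 2-fold. Nop56, a core protein of box C/D snoRNPs, went from 2626 to 7268, a change of 1.51. Nop2, an rRNA methyltransferase, went from 2583 to 6845, a change of 1.44. Grwd1, a chaperone of Rpl3, and Polr1e, a subunit of RNA polymerase I, changed by 1.29 and 1.24. The median of the biogenesis genes exceeded that of the core ribosomal proteins by 0.43 to 0.72 across the alternatives, with the same sign in each. Grwd1 and Polr1e read only 438 and 232 upon fasting, far below any core gene, and the list was not set beside genes of like brightness. The gene that was lower, named after its value was seen, was Ubtf, an architectural factor of RNA polymerase I transcription, at 55014 and 32296, a change of -0.71, or -0.29 with the mean of its probes.

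**Figure D3:**
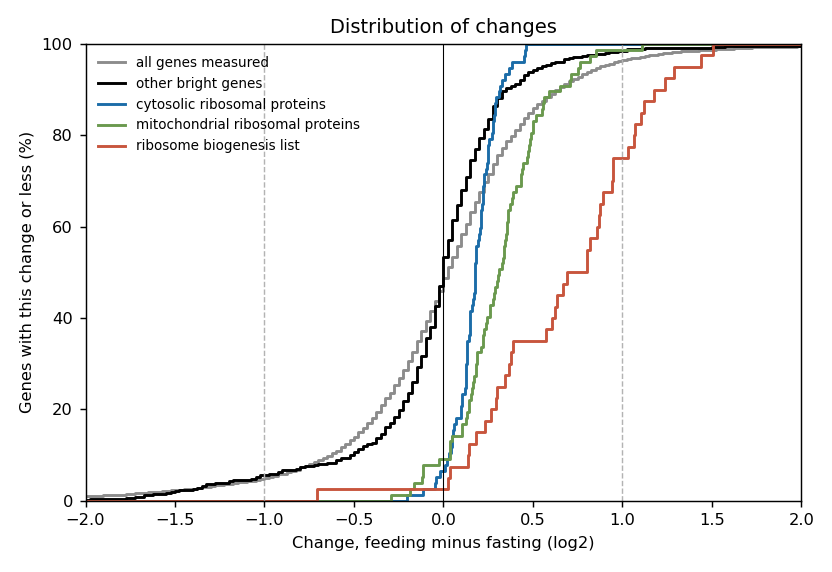
Share of genes (vertical axis, percent) with a given change or less (horizontal axis, log2, positive when higher upon feeding) for all genes measured, other bright genes, cytosolic ribosomal proteins, mitochondrial ribosomal proteins and ribosome biogenesis genes, with dashed lines at 2-fold. The curve of the cytosolic ribosomal proteins is the steepest and crosses its median at 0.18, between that of all genes at 0.01 and those of the mitochondrial ribosomal proteins at 0.31 and the biogenesis genes at 0.74.

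Other TOP mRNAs, which encode translation factors and are controlled through the same 5′ tract, did not form a narrow group. Of 17 genes, 11 were higher and 6 lower, where 51.3% of all genes with a change were higher. The median was 0.23, or 0.12 after loess and 0.13 with the mean of probes. Upon scaling by the median 15 were higher and 2 lower, where 62.3% of all genes with a change were higher. Hnrnpa1 changed by 1.19, from 864 to 1877, but by 0.47 with the mean of its probes. The elongation factor subunits Eef1b2 and Eef1g changed by 0.48 and 0.38, whereas the TOP mRNA of the intermediate filament Vim changed by -0.65, from 8443 to 5273. The bright elongation factors Eef1a1 and Eef2, named after their values were seen, changed by -0.11 and -0.12, and by 0.04 and 0.08 upon scaling by the median.

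Among 21 genes of mTORC1 and MYC control, 7 were higher and 14 lower upon feeding, with a median of -0.21. Of all genes with a change, 51.3% were higher. Ddit4, which encodes the mTORC1 inhibitor REDD1, had 27529 upon fasting and 2019 upon feeding, a change of -3.73. Sesn1, a sestrin that holds mTORC1 back when leucine is low, changed by -1.07, from 1608 to 724, and Maf1, a repressor of RNA polymerase III, by -0.86, from 2942 to 1574. Mycn changed by 1.22 from signals of 23.5 and 47.6, but by 0.25 after the normexp correction. Inhibitors were among the genes with the largest decreases in that list, but decreases were not limited to them. Named after their values were seen, Mtor and Myc were lower too (-0.54 and -0.49), while Rheb and Rps6kb1 were higher (0.10 and 0.20).

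**Figure D4:**
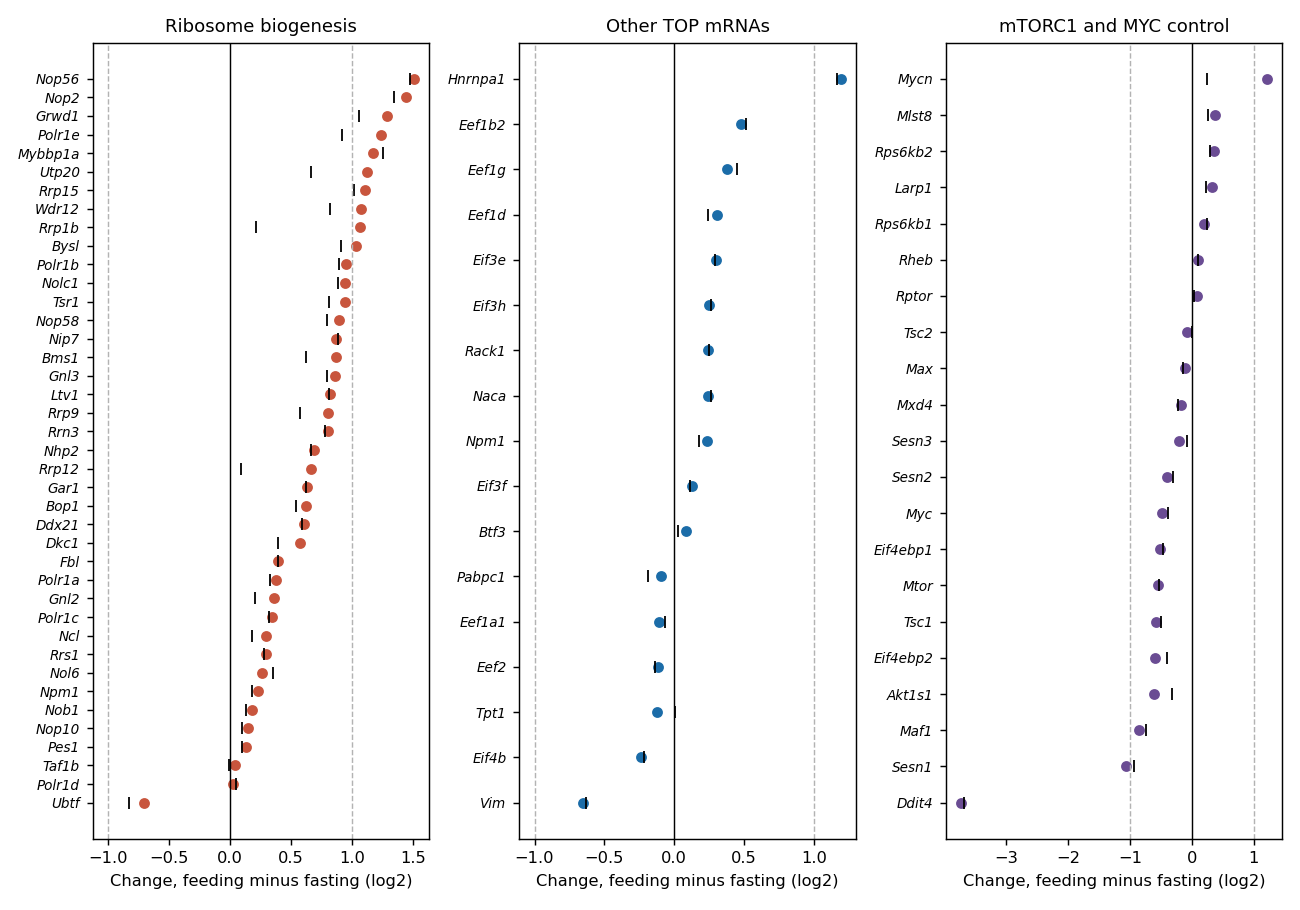
Change of each gene (horizontal axis, log2, positive when higher upon feeding) for ribosome biogenesis genes, other TOP mRNAs and genes of mTORC1 and MYC control, as points after quantile normalization and as ticks after the normexp background correction, with dashed lines at 2-fold. In the biogenesis panel 39 of 40 points lie above 0, and the lowest point of the control panel is Ddit4 at -3.73; each panel has its own scale.

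The size of the small change in the core genes depended on the normalization. Their median was 0.18 after quantile normalization and 0.25 after scaling by the 75th percentile. It was 0.37 after scaling by the median, which itself moved the median of all genes to 0.13. After cyclic loess, which fits a curve of the changes along brightness, the core median was 0.08. That curve did not centre the other bright genes, whose median was -0.12 after loess. After loess 58 of 77 core genes were higher, where 46.3% of all genes tested and 48.9% of those with a change were. In that setting 14 core genes that had been higher turned lower. Upon scaling by the median 77 of 77 core genes were higher, where 58.3% of all genes tested and 62.3% of those with a change were. Of these core genes 54 were higher by at least 0.32, where 30.4% of all genes tested were. In every setting 56 core genes were higher, and 0 were lower in every setting.

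Because the ribosomal protein probes are bright, 754 other genes at least as bright as the 10th percentile of the core genes were described in the same way. Their median was -0.01 after quantile normalization, 0.17 after scaling by the median and -0.12 after loess, and their interquartile range was 0.33 wide against 0.12 for the core genes. The core median exceeded that of the other bright genes by 0.18 to 0.21 across the alternatives. The distance to genes of like brightness thus varied less than the change itself.

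**Figure D5:**
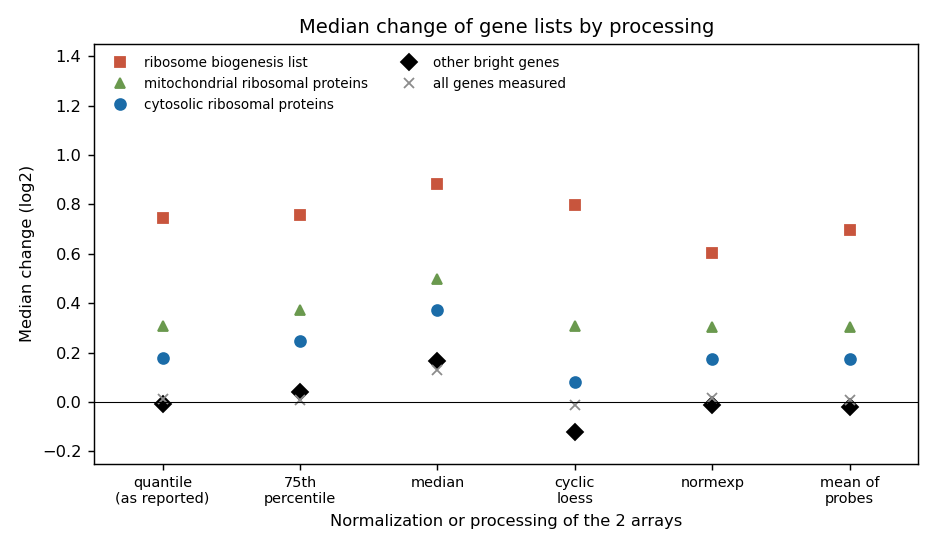
Median change (vertical axis, log2, positive when higher upon feeding) of 5 groups of genes under 6 ways of processing the same 2 arrays (horizontal axis). The cytosolic ribosomal proteins range from 0.08 to 0.37, stay above the other bright genes in each setting and lie below the mitochondrial ribosomal proteins and the biogenesis genes in each.

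Core genes with and without the promoter features overlapped in their change. The median change was 0.18 in the 13 core genes with a pyrimidine start and 0.18 in the 44 without one, and the lowest change in each set was -0.20 and -0.05. It was 0.18 in the 40 genes with CGGAAG and 0.15 in the 17 without. Rps6 and Rps21, with both features in the windows above, lay at 0.24 and -0.20.

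The labelled tissue was checked with defining markers. All 6 hepatocyte markers were measured, with Alb at 159091 upon fasting and 141790 upon feeding, and their summed signal was 566306 and 458986. Much of that difference came from Tat, an enzyme induced by fasting, at 106618 and 51969. Cps1 was lower too, at 84447 upon fasting and 63154 upon feeding, a change of -0.33, while Alb, Apoa1, Ttr and Cyp2e1 changed by -0.02 to -0.07. The 4 of 5 leukocyte markers measured summed to 14376 and 7779, the 3 stellate and endothelial markers to 37619 and 27890, 2 of 3 red blood cell markers to 23968 and 22370, and 4 pancreas markers to 3713 and 3380, nearly all of it from Amy2a5 at 3632 and 3302. Cd68 and Hbb-b1 were not measured. These sums are of unscaled signals and were lower in the feeding pool, where the unscaled median log2 ratio over all genes measured was also below 0, at -0.09. On the same unscaled signals 68 of 77 core ribosomal protein genes were higher. After quantile normalization the leukocyte markers Ptprc, Cd3e and Adgre1 still changed by -0.49, -0.37 and -0.89, and Cd79a allowed no fold. The stellate and endothelial markers Dcn, Pecam1 and Col1a1 changed by -0.24, -1.04 and -0.83. The part of cell composition in the ribosomal protein changes was not tested.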

How the data were processed

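The authors deposited the output of Agilent Feature Extraction 11.0.1.1 for 1 Cy3 array per pool, with an intensity per spot after background subtraction and no normalization between arrays. The value table that was also deposited contains the local background of each of the 44397 spots (medians 30.0 and 22.4) and was not used. Control and outlier spots were left out, spots of the same probe were averaged as log2 intensity, and both arrays were quantile normalized, as in the study's methods, with limma 3.58.1 in R 4.3.3. Of 39402 probes, 27218 were named through RefSeq transcripts of the assembly GRCm38.p6. A gene was represented by its brightest probe, if either array had it well above background, and its change is feeding minus fasting. Where only 1 array had the probe above background the change is a bound, and where the bound turned the direction no value is given; such genes count among the 16346 tested.

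The genes named were the paralogs and Rps19bp1, the 8 core genes at each end of the ranking by change (5 at the lower end were below 0), members below background, members used as references, Rps6, Rps27a, and at most 4 genes of each comparison list. Some members are not reported here by name. Others were named for their role with their values known. The members and lists were chosen with earlier results of these data known. Alternatives were median and 75th percentile scaling, cyclic loess, a normexp correction (offset 50) of the median signal, the mean of probes, and other filters. The procedure was tested on simulated data. With 1 array per group no test was possible, and the number of arrays limits the precision.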

Additional observations from a re-analysis of the deposited data

How the results depend on the processing

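No paired analysis was possible because each group has 1 array, and for the same reason no array could be left out. Of the values recomputed under the alternatives for the family, its subunits, the paralogs and the comparison lists, 104 stayed within the limits set for them, 29 moved and no value past a fold threshold turned its sign; the causes were not tested. Over all members the median went from 0.18 to 0.37 upon scaling by the median and to 0.077 after cyclic loess, that of the large subunit to 0.40 and 0.11, and that of the small subunit to 0.34 and 0.062. Upon scaling by the median 5 of 84 members were past 1.5-fold, where 3796 of 15292 genes with a change were. The medians in that setting were 0.50 for mitochondrial ribosomal proteins, 0.42 for other TOP mRNAs and 0.88 for biogenesis. The other TOP mRNAs had 0.12 after loess and 0.13 with the mean of probes, the mTORC1 and MYC list -0.41 with the mean of probes, and biogenesis 0.60 after normexp. Rpl7l1 minus Rpl7 was 0.34 under both scalings, 0.53 after loess and 0.18 after normexp. Rps23rg1 minus Rps23 was -0.42 under both scalings and -0.093 after normexp. After normexp, Rps27l minus Rps27 was -0.30, Rpl32l minus Rpl32 -0.16 and Rpl22l1 minus Rpl22 0.046, the last of which was 0.33 with the mean of probes and so turned its sign, from -0.05. Without a filter on dim probes 1 member, below background on both arrays, was past 2-fold and 3 past 1.5-fold, and 2 probes were past 2-fold with each probe counted. Of 19505 genes with a change in that setting, 2023 were past 2-fold and 5122 past 1.5-fold. With the filter and by gene, 9 of 84 members passed a threshold of 0.32, where 6921 of 15199 genes with a change did. Of the changes of named genes, 267 stayed and 77 moved. Genes near the background, such as Rpl3l, Rpl10l and Rpl39l, are limited by their signal.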

Other observations

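Of the sequences that the symbol rule leaves out as pseudogenes, 3 had probes well above background on both arrays. Rps4l read 1078 upon fasting and 1814 upon feeding, a change of 0.81 on the log2 scale, which is more than any core gene. Rpl34-ps1 read 6391 and 6534 (0.06), and Rps15a-ps6 read 51.6 and 47.5 (0.11).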
